A study of Mus musculus with 2 samples.

Results

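Interleukins are the secreted proteins through which leukocytes signal to each other, and the genes described here are all those of the deposited tables whose symbol starts with Il followed by a digit, apart from symbols ending in Rik. These were 83 of 20938 genes, namely 39 ligands, 41 receptor chains and 3 others. RNA-seq had been performed on splenic Treg cells taken 7 days after transplantation, with 1 library from littermate controls and 1 from Foxp3-Mettl14f/+ cKO mice. The mice, on a C57BL/6J background, had been made diabetic with streptozotocin, had received BALB/c islets under the kidney capsule and had received no mAbs treatment. The cKO mice carried 1 floxed Mettl14 allele with Cre recombinase under the Foxp3 promoter, so the deletion was heterozygous and directed at Foxp3-expressing cells. The paper's genotyping text gives the littermate controls as Mettl14f/f, while the sample labels call them wild type and describe the other library as a Foxp3 knockdown. The sources used here give neither the age of the mice nor how many were pooled. Treg cells had been enriched with magnetic beads as CD4+CD25+ cells, so Il2ra, which encodes CD25, had served to select the cells in both libraries.

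A ligand binds a receptor made of a specific chain and, in most families, a chain shared with other receptors. The common gamma chain is encoded by Il2rg, the signal transducer gp130 by Il6st and the accessory chain of the IL-1 and IL-33 receptors by Il1rap. Receptors of the IL-1 and IL-17 families signal through adaptor proteins, and most of the others signal through Janus kinases and STAT transcription factors. Treg cells carry the high-affinity IL-2 receptor and depend on IL-2 from other cells, and IL-10 is among the cytokines through which they restrain inflammation. Other interleukins, such as IL-1 beta and IL-12, come mainly from myeloid cells.

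The control library held 20239325 reads and the cKO library 18327535. Levels are the deposited values, which are read counts divided by a size factor for each library, and a change is the log2 ratio of cKO to control after adding 1 to each level. Intervals are exact 95% Clopper-Pearson intervals of the ratio of levels, computed from the reads without the added 1. Since each genotype has 1 library, no difference has a replicate check, and the intervals cover counting error only. Mettl14, the targeted gene, had a level of 917 in the control sample and 741 in the cKO sample, a change of -0.31 (interval -0.45 to -0.16) that was -0.02 when the T cell core genes were set equal. Foxp3 changed by 0.05 (-0.06 to 0.15). The T cell core genes, such as Cd3e and Lck, are used below as an alternative scaling, which moved the median change of all genes from -0.04 to 0.24.

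Of the 83 genes, 67 had a mean level of at least 1 over both libraries, and the other 16 were listed at 0 in both. The 16 were the ligand genes Il3, Il5, Il11, Il13, Il17a, Il17b, Il19, Il22, Il31, Il34, Il1f6, Il1f8 and Il1f10, the receptor genes Il13ra2 and Il1rapl2, and Il4i1b. By counting error alone, 0 reads would allow up to 0.148 reads in each 1000000 in the control sample and 0.164 in the cKO sample. That is the share that 3 reads make up. The listed zeros exceed counting error, so this bound may not hold for them. Of 1224 genes with 10 to 19 control reads, 610 were at 0 in the cKO library and only 35 had 1 to 3 reads there. The lowest mean level among the described genes was 2.42, for Il20, and no gene lay between 0 and the minimum of 1. Of 26 described ligands, 13 were higher in the cKO library by 1.5-fold or more and 10 were lower by that much. Of 39 described receptor chains, 10 were higher by 1.5-fold or more and 7 were lower. Over all 16659 genes that passed the same filter, 17.2% were higher and 24.2% lower by that threshold. The median change was 0.54 for the ligands and 0.19 for the receptor chains, against -0.04 for all genes. Over genes above 0 in both libraries, the medians were 0.61 and 0.27, against 0.02 for all such genes. Setting genes listed at 0 in 1 library to 3 reads there left the medians of 0.54 and 0.19 the same. It is no check of them, since no such member then crossed the median. Setting the T cell core genes equal raised the medians of the described ligands and receptor chains to 0.81 and 0.47. It put 14 ligands and 18 receptor chains past 1.5-fold higher, with 9 ligands and 4 receptor chains lower. All genes shifted under that scaling too, from 41.6% to 58.4% higher among those past the threshold.

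**Figure D1:**
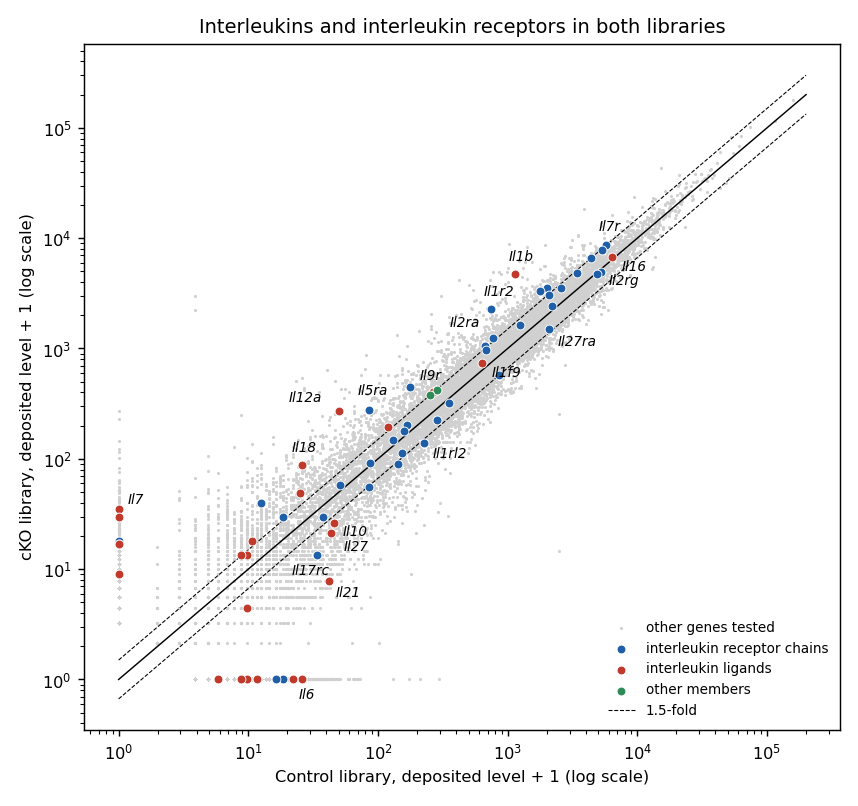
Deposited level plus 1 of each gene in the control library (horizontal, log scale) and in the cKO library (vertical, log scale), for the genes whose mean level was 1 or more. Each point is 1 gene, the solid line marks equal levels and the dashed lines a 1.5-fold difference; Il1b, Il12a, Il18, Il1r2, Il5ra and Il9r lie above the upper dashed line, and genes listed at 0 in 1 library lie along the left and lower edges at 1.

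Many of the called ligands had few reads. Among the 26 described ligands 11 were listed at 0 in 1 library, and among the 39 receptor chains 4 were, with between 5 and 30 reads in the other library. Such zeros were frequent in these tables and are given as listed, with no fold. Where the control library held 10 to 19 reads of a gene (1224 genes), the cKO library listed 49.8% at 0. Where the cKO library held 10 to 19 (836 genes), the control library listed 18.9% at 0. With only the 13853 genes above 0 in both libraries, 8 of 15 ligands were at least 1.5-fold higher and 4 lower, and 9 of 35 receptor chains were higher and 4 lower, against 15.8% and 13.7% of all such genes. In the subset with mean levels of 100 or more, where 11.9% of 10693 genes were higher and 8.71% lower, 4 of 6 ligands and 7 of 28 receptor chains were higher, and 0 ligands and 2 receptor chains were lower.

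In bulk RNA more cells of a type and more RNA per cell cannot be told apart, and markers of other cell types differed between these libraries. All 10 B cell markers were past 1.5-fold higher in the cKO library, with a summed level of 7484 in the control sample and 41722 in the cKO sample. All 10 macrophage markers were higher, with a summed level of 3822 and 12103, and Marco was listed at 0 in the control library. Of 10 granulocyte markers 3 were higher and 1 was lower, and their summed level was 227160 and 311112. The 16 T cell core genes, of which 0 were higher and 2 lower, had a summed level of 73992 and 59890. Of 8 CD8 T and NK cell markers 6 were higher, from 5013 to 10541 in summed level. Of 8 mast cell and basophil markers 1 was higher and 4 were lower, from 7034 to 6108. Of 11 Treg markers 1 was higher and 1 was lower, with a summed level of 9845 and 10407 and a median change of -0.12, so the sum and the median had opposite signs. Of the 7 dendritic cell markers 2 were higher, from 2652 to 3540 in summed level. Of the 7 erythroid markers 4 were lower, from 22003 to 13486, and of 8 stromal and endothelial markers 1 was higher and 3 were lower, from 2485 to 3391, with Col3a1 listed at 0 in both libraries. The stromal and endothelial sum was mostly Pecam1, which went from 2263 to 3225. The erythroid sum was mostly Tfrc, which dividing cells also express and which went from 13232 to 5436. While 4 erythroid markers were lower, Hba-a1, Hba-a2 and Alas2 changed by 0.12, 0.44 and 0.05, all under 1.5-fold. The part of these differences in the values of the interleukin genes was not tested.

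**Figure D2:**
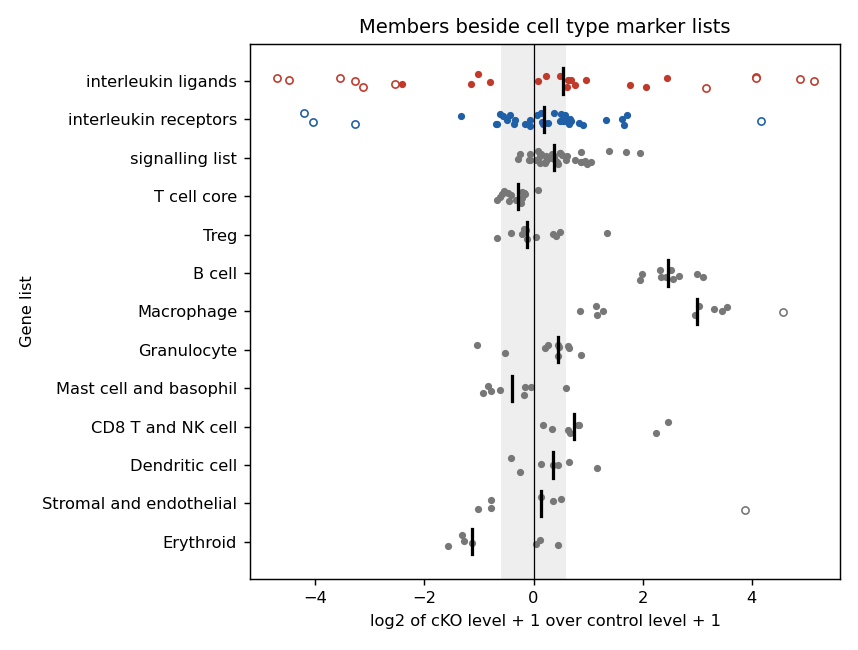
Change of each gene (horizontal, log2 ratio of cKO to control, 1 added to each level) in the ligands, the receptor chains, the signalling genes and the cell type marker lists (rows, with random vertical spread). Points are genes, open points are genes listed at 0 in 1 library, black bars are medians and the grey band marks changes under 1.5-fold; the ligand points spread from -4.71 to 5.13, while the 10 B cell markers all lie above 1.9.

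The promoters of the 2 ligands and the 2 receptor chains with the largest rise, and of the receptor chain with the largest fall, among genes whose mean level reached 100 are shown because these genes mark the ends of the range among well-counted members. The choice was made after their values were seen. Each window runs from 250 bases before to 50 bases after the start site that RefSeq gives on GRCm38.p6, and is written 5′ to 3′ on the strand of the gene. Capitals mark matches, on either strand, to the TATA box (TATAAA), the kappa B motif (GGGNNNTCC), the AP-1 motif (TGANTCA), the STAT-binding GAS motif (TTCNNNGAA) or the C/EBP motif (TTNNGCAA).
Il1b, minus strand, chr2:129371090-129371389: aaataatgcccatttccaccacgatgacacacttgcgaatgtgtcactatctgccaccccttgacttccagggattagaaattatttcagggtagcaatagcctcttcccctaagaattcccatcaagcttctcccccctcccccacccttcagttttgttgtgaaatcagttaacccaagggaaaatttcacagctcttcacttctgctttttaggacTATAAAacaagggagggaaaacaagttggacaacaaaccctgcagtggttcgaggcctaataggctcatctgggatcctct
Il12a, plus strand, chr3:68690394-68690693: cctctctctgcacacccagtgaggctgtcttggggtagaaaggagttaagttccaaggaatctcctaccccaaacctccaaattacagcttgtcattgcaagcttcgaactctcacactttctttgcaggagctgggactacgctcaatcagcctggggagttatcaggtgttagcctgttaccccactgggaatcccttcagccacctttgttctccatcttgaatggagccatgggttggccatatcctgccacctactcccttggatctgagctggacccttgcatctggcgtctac
Il1r2, plus strand, chr1:40085843-40086142: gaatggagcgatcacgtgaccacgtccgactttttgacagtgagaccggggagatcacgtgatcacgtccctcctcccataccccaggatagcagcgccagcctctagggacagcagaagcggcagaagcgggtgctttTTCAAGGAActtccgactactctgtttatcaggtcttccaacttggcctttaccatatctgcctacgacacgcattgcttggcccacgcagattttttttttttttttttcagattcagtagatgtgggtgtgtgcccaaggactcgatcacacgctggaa
Il5ra, minus strand, chr6:106748988-106749287: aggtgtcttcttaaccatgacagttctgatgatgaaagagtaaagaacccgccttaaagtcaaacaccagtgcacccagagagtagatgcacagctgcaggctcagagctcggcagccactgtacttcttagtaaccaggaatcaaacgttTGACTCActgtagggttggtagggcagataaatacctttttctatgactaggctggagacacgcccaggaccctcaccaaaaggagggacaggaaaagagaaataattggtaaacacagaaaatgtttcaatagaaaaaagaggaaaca
Il1rl2, plus strand, chr1:40324339-40324638: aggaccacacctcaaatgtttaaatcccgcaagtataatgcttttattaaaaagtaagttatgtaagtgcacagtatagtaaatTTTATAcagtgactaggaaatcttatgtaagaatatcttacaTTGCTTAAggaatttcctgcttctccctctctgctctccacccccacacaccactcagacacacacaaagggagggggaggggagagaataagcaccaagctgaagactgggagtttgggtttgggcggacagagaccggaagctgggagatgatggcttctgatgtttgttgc
The Il1b window held the TATA box, whose first base lay at -31 from the start site, a motif present in 13.6% of all 32851 promoter windows. The Il1r2 window held a GAS match at -111, found in 8.3% of all windows, and the Il5ra window an AP-1 match at -99, found in 7.81%. The Il1r2 start site of RefSeq lies inside the gene interval that GENCODE gives. The Il1rl2 window held a C/EBP match at -124, found in 10.8% of all windows, and TATAAA on the opposite strand at -166. The Il12a window held none of these letters. The table has 2 start sites for this gene, and the window of the other one held a kappa B match. The table held 53 of the 67 described genes. Of these, 9 had a TATA box match, 10 a kappa B match, 10 an AP-1 match, 9 a GAS match and 14 a C/EBP match in at least 1 window. Kappa B matches lay in 17.8% of all windows. These are counts of genes, some with more than 1 window, while the shares over all windows are per window, so they are unlike measures. A match is a description of the letters and not a bound site, since no binding or chromatin data were part of the study.

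Within the IL-1 family, the inflammatory ligand gene Il1b had the highest level per kilobase of exon. Its level was 1146 in the control sample and 4775 in the cKO sample, a change of 2.06 (interval 1.97 to 2.15) or 4.17-fold. On GRCm38, Il1b occupies bases 129364570 to 129371139 of chromosome 2 (minus strand). Il1a, its neighbour from 129299610 to 129309972 and the gene of the other IL-1 agonist, was listed at 0 in the control library and had 14 reads in the cKO library. Il18, which encodes a ligand that is activated by the same protease as IL-1 beta, had a level of 25.2 in the control sample and 87.6 in the cKO sample, and changed by 1.76 (1.14 to 2.50). Among the natural inhibitors of these ligands, Il1rn and Il18bp were higher by smaller amounts. The decoy receptor gene Il1r2, described below, changed by 1.62 (1.50 to 1.75). The receptor antagonist gene Il1rn had a level of 264 and 403 (control, then cKO) and changed by 0.61 (0.38 to 0.84), and Il18bp, which encodes the secreted IL-18 binding protein, had a level of 250 and 381 and also changed by 0.61 (0.37 to 0.85). Both genes were just past 1.5-fold, at 1.52-fold and 1.53-fold, and Il1rn fell short of it under TMM scaling, at 0.583 against 0.585.

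The other ligands of this family differed little or had few reads. Il1f9, the gene of the epithelial and neutrophil cytokine IL-36 gamma, had a level of 637 and 741 and changed by 0.22 (0.06 to 0.38), under 1.5-fold. Il1f5, which encodes the IL-36 receptor antagonist, had 9 reads in the control sample and 3 in the cKO sample, and its interval of -3.87 to 0.65 included 0. Il33, the gene of an alarmin released by damaged stromal cells, had 22 reads in the control library and was listed at 0 in the cKO library. At 20 to 29 control reads, 206 of 625 genes were listed at 0 in the cKO library.

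The receptor genes of the IL-1 family include 6 neighbours in a single cluster on chromosome 1, and they did not differ as a block. Il1r2, at one end of the cluster from 40074079 to 40125231, encodes a decoy receptor that binds IL-1 without signalling. Its level was 744 in the control sample and 2295 in the cKO sample, a change of 1.62 (1.50 to 1.75) or 3.08-fold. Il1r1, the next gene from 40225080 to 40317257, encodes the signalling IL-1 receptor and had a level of 130 and 148, a change of 0.19 (-0.17 to 0.55). The next pair was lower. Il1rl2, the IL-36 receptor gene from 40324610 to 40367562, had a level of 223 and 138 and changed by -0.70 (-1.03 to -0.38). Il1rl1, which encodes the IL-33 receptor ST2 found on tissue Treg cells, mast cells and basophils, had a level of 852 and 578 and changed by -0.56 (-0.72 to -0.40), 1.48-fold lower and so just short of the threshold. Under the T cell core scaling Il1rl2 changed by -0.41 and Il1rl1 by -0.28.

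The last pair of the cluster makes up the IL-18 receptor. Il18r1, the ligand-binding chain, had a level of 2207 in the control sample and 2429 in the cKO sample, a change of 0.14 (0.05 to 0.22). Il18rap, the signalling partner chain from 40515362 to 40551705, had a level of 1997 and 3556 and changed by 0.83 (0.75 to 0.91), so the intervals of the paired chains did not overlap. Outside the cluster, the accessory chain gene Il1rap had a level of 668 and 1052 and changed by 0.65 (0.51 to 0.80). Il1rapl1, a related gene known from neurons, had 18 reads in the control library and was listed at 0 in the cKO library. In all, 3 of the 8 described receptor chains of this family were higher by 1.5-fold or more and 2 were lower, beside 17.2% and 24.2% of all genes.

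**Figure D3:**
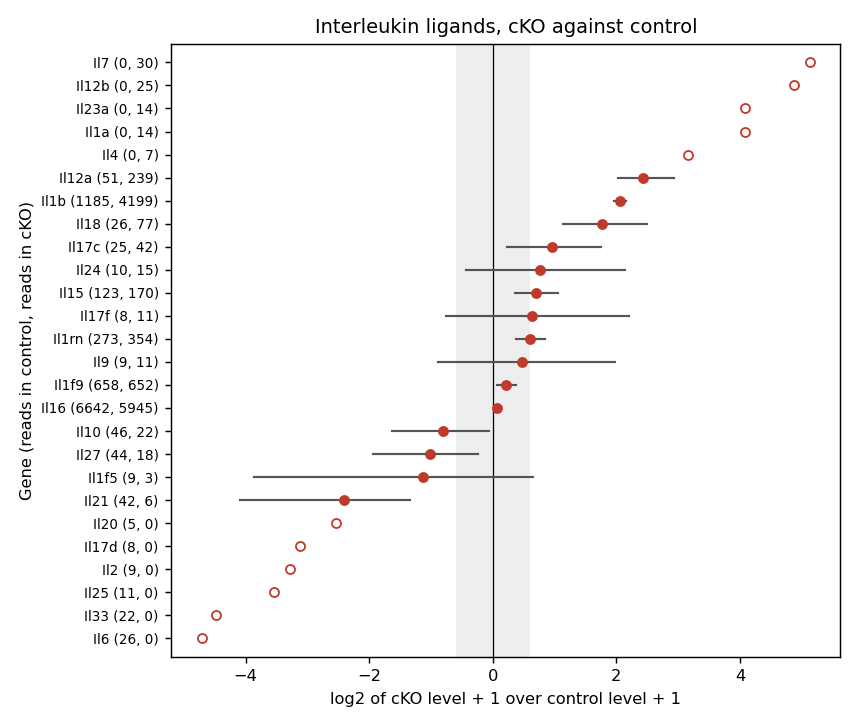
Change of each of the 26 described ligands (horizontal, log2 ratio of cKO to control, 1 added to each level), ordered by size, with the reads in the control and cKO libraries in parentheses after each name. Lines are exact 95% intervals for counting error, open points are genes listed at 0 in 1 library and have no line, and the grey band marks changes under 1.5-fold; Il12a, Il1b and Il18 lie above the band with intervals clear of it, and Il21 below it.

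Among the ligands of the common gamma chain family, Il15 was the only gene with over 100 reads in each library. IL-15 maintains NK cells and memory CD8 T cells, and Il15 had a level of 119 in the control sample and 193 in the cKO sample, a change of 0.70 (0.36 to 1.05). Il21, a product of helper T cells that acts on B cells, had the most negative change of the ligands above 0 in both libraries, with a level of 40.6 and 6.82 and a change of -2.41 (-4.10 to -1.33). Il2, which lies next to Il21 on chromosome 3, from 37120523 to 37125959 against 37222759 to 37232636, had 9 reads in the control library and was listed at 0 in the cKO library. Il7, the gene of a stromal survival factor for lymphocytes, was listed at 0 in the control library and had 30 reads in the cKO library. At 30 to 39 cKO reads, 6.25% of all genes were listed at 0 in the control library. Il4, a T helper 2 cytokine gene, was listed at 0 in the control library with 7 reads in the cKO library, and its chromosome 11 neighbours Il13, Il5 and Il3 were at 0 in both. Il9 had 9 and 11 reads, with an interval of -0.89 to 1.97.

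The receptor chains of this family held the first 5 places in level per kilobase by the mean of both libraries, though not in the cKO library alone, and they differed by unequal amounts. Il7r, the IL-7 receptor gene of naive and memory T cells, had a level of 5738 in the control sample and 8604 in the cKO sample, a change of 0.58 (0.54 to 0.63), just under the threshold of 0.585. Il2rg, the common gamma chain gene that pairs with it, had a level of 4920 and 4729, a change of -0.06 (-0.12 to 0.00) that turned to 0.23 under the T cell core scaling, and 30.5% of its exon bases overlap Gm20489 on the same strand. Il2rb, which encodes the chain shared by the IL-2 and IL-15 receptors and abundant on NK cells, had a level of 3406 and 4842 and changed by 0.51 (0.44 to 0.57). Il2ra, the gene of the selection marker CD25, had a level of 776 and 1242 and changed by 0.68 (0.55 to 0.81). Because the cells had been selected on CD25, the level of Il2ra is given as a description.

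The remaining chains of the family fell into a similar range, with a single exception. Il4ra, the IL-4 and IL-13 receptor chain gene, had a level of 4366 and 6544 in the control and cKO libraries, a change of 0.58 (0.53 to 0.64). Il21r, its neighbour on chromosome 7, had a level of 2556 and 3563, a change of 0.48 (0.40 to 0.55). Il13ra1 had a level of 676 and 978, a change of 0.53 (0.39 to 0.68), and Il15ra, next to Il2ra on chromosome 2, a level of 167 and 202, a change of 0.27 (-0.04 to 0.58). Il9r stood apart from these chains, with a level of 177 and 448 and a change of 1.33 (1.08 to 1.60) or 2.53-fold. IL-9 receptors are known from mast cells and from T and B cell subsets. Together, 2 of the 9 described receptor chains of the family were at least 1.5-fold higher and 0 were lower. All 9 were above 0 in both libraries, and of all such genes 15.8% were higher and 13.7% lower.

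The 2 alpha chains that pair with the common beta chain, Il3ra and Il5ra, differed from each other. Il5ra, the IL-5 receptor gene of eosinophils and B-1 cells, had a level of 84.2 in the control sample and 279 in the cKO sample, a change of 1.72 (1.37 to 2.10), the largest of any receptor chain above 0 in both libraries. Il3ra had a level of 159 and 176, a change of 0.15 (-0.17 to 0.48). The shared chain gene Csf2rb had a level of 3851 and 5520 and changed by 0.52 (0.46 to 0.58), while Csf2rb2, which in mice encodes a beta chain for IL-3 alone, changed by -0.25 (-0.39 to -0.11).

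In the IL-12 family, whose members are dimers of separately encoded chains, 3 of the 4 ligand genes were at least 1.5-fold higher and 1 was lower, beside 17.2% and 24.2% of all genes, and the 4 receptor chain genes stayed under 1.5-fold. Of the 3 higher ligand genes 2 were listed at 0 in the control library, so 1 was higher and 1 lower among those above 0 in both. Il12a, the p35 chain gene of IL-12 and IL-35, had a level of 49.3 in the control sample and 272 in the cKO sample, a change of 2.44 (2.02 to 2.93) or 5.51-fold. Ebi3, the partner chain gene of IL-27 and IL-35, had a level of 219 and 433 and changed by 0.98 (0.75 to 1.23). Il12b, the p40 chain gene of IL-12 and IL-23, and Il23a, the p19 chain gene of IL-23, were listed at 0 in the control library and had 25 and 14 reads in the cKO library. Il27, the p28 chain gene of IL-27, had a level of 42.6 and 20.5 and changed by -1.02 (-1.93 to -0.24), although 10.1% of its exon bases overlap Apobr on the opposite strand and the sources used here do not say whether reads were counted by strand. Of the receptor chains, 3 had a negative and 1 a positive change. Il27ra, the IL-27 receptor gene of T cells, had a level of 2074 and 1490 and changed by -0.48 (-0.58 to -0.38), and Il12rb1 a level of 282 and 224, with a change of -0.33 (-0.60 to -0.07). Il12rb2 changed by -0.16 (-0.39 to 0.07), or by 0.12 under the T cell core scaling, and 1519 of its 3794 exon bases overlap Serbp1 on the opposite strand. Its neighbour Il23r on chromosome 6 changed by 0.06 (-0.39 to 0.51).

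In the IL-6 family neither the shared chain nor the IL-6 receptor chain passed 1.5-fold. Il6st, the gp130 gene, had a level of 5213 in the control sample and 4983 in the cKO sample, a change of -0.07 (-0.12 to -0.01) that turned to 0.22 under the T cell core scaling. Il6ra had a level of 2074 and 3038, a change of 0.55 (0.47 to 0.63). Il6, the ligand gene, had 26 reads in the control library and was listed at 0 in the cKO library. Il31ra, a neighbour of Il6st on chromosome 13 whose product receives the itch cytokine IL-31, had a level of 84.2 and 54.6 and changed by -0.62 (-1.16 to -0.10). Il11ra1 had a level of 142 and 88.7 and changed by -0.67 (-1.10 to -0.28), and Il11ra2 a level of 17.4 and 28.4, with a change of 0.68 (-0.22 to 1.67). The 2 IL-11 receptor genes are closely related copies between which reads may be split, and their summed level of 160 and 117 changed by -0.44 (-0.82 to -0.08), under 1.5-fold. Under the T cell core scaling Il31ra changed by -0.34 and Il11ra1 by -0.39, both then under 1.5-fold.

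In the IL-10 family Il10ra and Il10rb had most of the reads, and the ligand genes and the other 4 receptor genes had few. Il10, on chromosome 1 from 131019845 to 131024974, had a level of 44.5 in the control sample and 25.0 in the cKO sample, a change of -0.81 (-1.63 to -0.07) that was -0.53 under the T cell core scaling and then under 1.5-fold. Of the genes next to it in the same cluster, Il24 had 10 and 15 reads with an interval of -0.43 to 2.13, Il20 had 5 reads in the control library and was listed at 0 in the cKO library, and Il19 was at 0 in both. The ligand-binding receptor gene Il10ra, expressed by most leukocytes, had a level of 1783 and 3328 and changed by 0.90 (0.82 to 0.99). Its partner chain gene Il10rb had a level of 1250 and 1626 and changed by 0.38 (0.27 to 0.49), so the interval lay below that of Il10ra. Il20rb had a level of 50.3 and 56.9 (interval -0.41 to 0.77), Il22ra1 was listed at 0 in the control library with 15 reads in the cKO library, and Il20ra and Il22ra2, neighbours on chromosome 10, had 16 and 9 control reads and were listed at 0 in the cKO library.

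**Figure D4:**
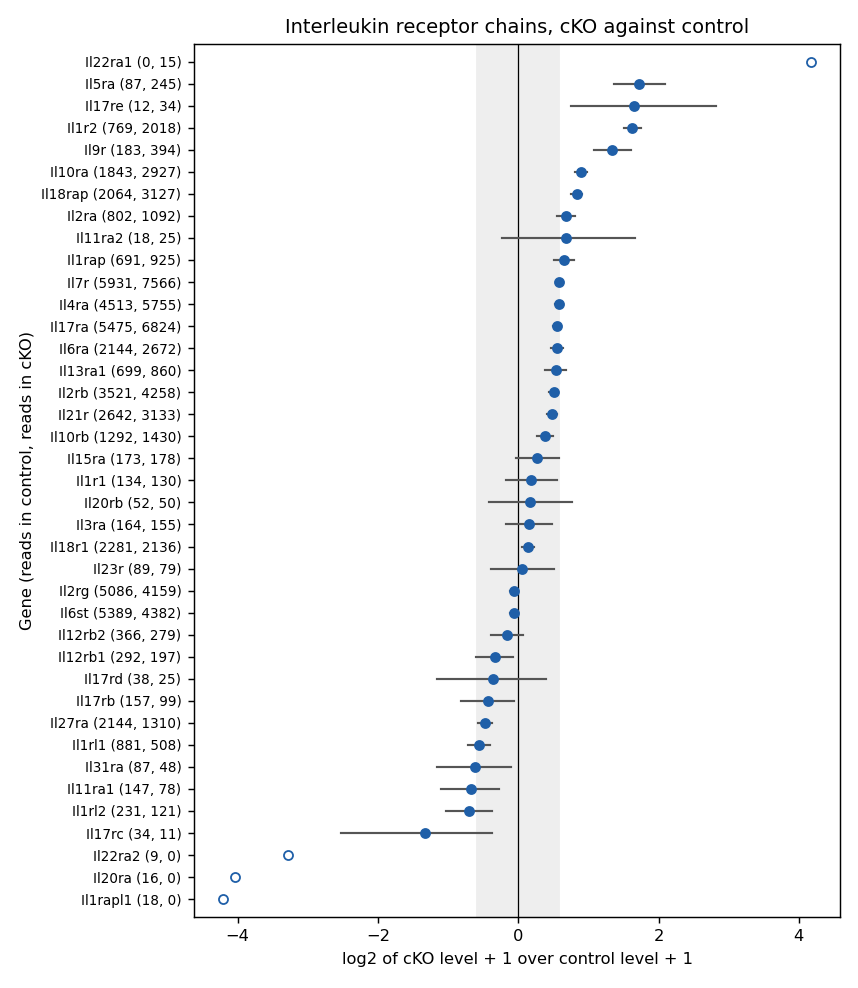
Change of each of the 39 described receptor chains (horizontal, log2 ratio of cKO to control, 1 added to each level), ordered by size, with the reads in the control and cKO libraries in parentheses after each name. Lines are exact 95% intervals for counting error, open points are genes listed at 0 in 1 library and have no line, and the grey band marks changes under 1.5-fold; Il5ra, Il17re, Il1r2 and Il9r lie above 1.3, as does the open point of Il22ra1, and Il7r and Il4ra sit at the upper edge of the band.

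In the IL-17 family the common receptor chain had most of the reads. Il17ra, used by most cytokines of the family, had a level of 5296 in the control sample and 7760 in the cKO sample, a change of 0.55 (0.50 to 0.60). The ligand gene Il17c had a level of 24.2 and 47.8 and changed by 0.95 (0.23 to 1.76), while Il17f had 8 and 11 reads (interval -0.76 to 2.21) and its chromosome 1 neighbour Il17a, the main T helper 17 cytokine gene, was at 0 in both libraries. Il25 and Il17d had 11 and 8 control reads and were listed at 0 in the cKO library. The partner chains Il17re and Il17rc, adjacent on chromosome 6 from 113458484 to 113470758 and from 113471427 to 113483140, moved in opposite directions. Il17re had a level of 11.6 and 38.7, a change of 1.65 (0.75 to 2.82), and Il17rc a level of 32.9 and 12.5, a change of -1.33 (-2.52 to -0.38). Their summed level of 44.5 and 51.2 changed by 0.20 (-0.42 to 0.83). Il17rb, the IL-25 receptor gene, had a level of 152 and 113 and changed by -0.43 (-0.81 to -0.06), and Il17rd by -0.36 (-1.16 to 0.39).

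The described members outside these families were both under 1.5-fold. Il16, whose product is a ligand of CD4 stored by T cells, had a level of 6425 in the control sample and 6760 in the cKO sample and changed by 0.07 (0.02 to 0.12). Stard5 overlaps 15.3% of its exon bases on the opposite strand. Il4i1, which encodes a secreted amino acid oxidase rather than a cytokine, had a level of 284 and 421 and changed by 0.56 (0.34 to 0.79), or by 0.85 and so past 1.5-fold under the T cell core scaling, but 83.9% of its exon bases overlap Tbc1d17 on the opposite strand.

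Per kilobase of annotated exon, the order of the receptor chains was led by the chains of lymphocyte growth factor receptors. The mean of both libraries was 2021 per kilobase for Il2rg and 1538 for Il7r, followed by 962 for Il2rb, 920 for Il21r and 909 for Il4ra. In the control library the level per kilobase was 795 for Il2rb, 769 for Il21r and 727 for Il4ra. In the cKO library it was 1129, 1072 and 1090, so the last pair of these neighbours changed places between the libraries. Il1r2 moved furthest among the abundant chains, from 390 per kilobase in the control library to 1203 in the cKO library, where it exceeded Il2rb. Il2ra was at 136 and 217 per kilobase, and the receptor chains below Il20rb had mean levels from 12.2 for Il31ra to 0.932 for Il1rapl1. Among the ligands Il1b led with a mean of 1553 per kilobase, above 838 for Il16 and 418 for Il1f9, and the next ligand, Il12a, was at 94.4. The order of the first pair differed between the libraries, with Il16 at 817 and Il1b at 601 in the control sample, and Il1b at 2504 and Il16 at 860 in the cKO sample.

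**Figure D5:**
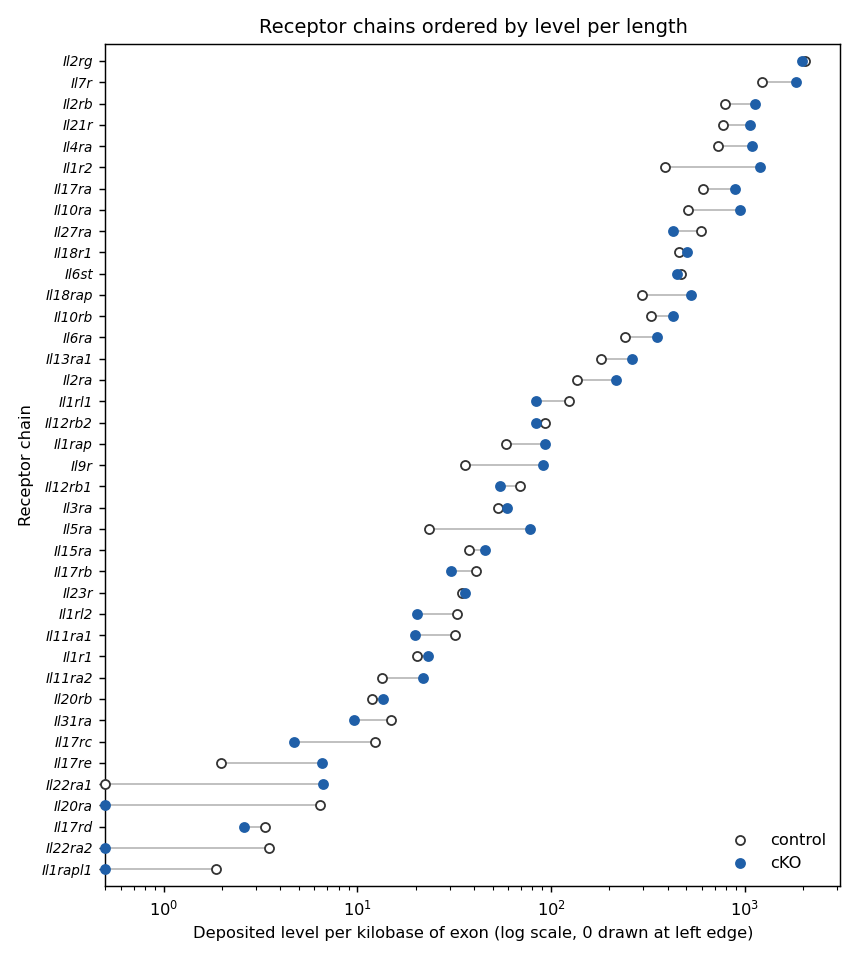
Deposited level per kilobase of exon (horizontal, log scale) of the 39 described receptor chains, ordered by the mean of both libraries, in the control library (open points) and the cKO library (filled points), with 0 drawn at the left edge. Il2rg and Il7r lead in both libraries, and Il1r2, Il9r and Il5ra have the widest gaps among the chains above 10 per kilobase.

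A list of 38 genes without an Il symbol covers 8 receptor chains and ligands that work with the members and 30 genes that process interleukins or carry or limit their signals inside the cell. Of the 37 described genes of this list, 12 were at least 1.5-fold higher, 0 were lower and the median change was 0.38. All 37 were above 0 in both libraries, and of all such genes 15.8% were higher and 13.7% lower. The list was chosen with earlier results of these data known, so its counts are given as a description. Of the 12, 3 were among the chains and ligands, namely Lifr, Ebi3 and Tslp, the last with 4 and 8 reads. Osmr was listed at 0 in both libraries. Of the 7 genes that process IL-1 beta and IL-18, 4 were higher. The inflammasome sensor genes Nlrp3 and Nlrc4 went from levels of 328 and 180 in the control sample to 859 and 583 in the cKO sample, changes of 1.39 (upper bound 1.58) and 1.69 (1.45 to 1.95). Aim2 and Casp4 changed by 0.60 (0.47 to 0.73) and 0.61 (0.42 to 0.80), while Casp1, the protease that cleaves both ligands, changed by 0.49 (0.33 to 0.66), and the adaptor gene Pycard by -0.06 (-0.17 to 0.06). Of the 8 genes that carry or limit signals from the IL-1 and IL-17 receptors, Irak2 and Irak3 were past 1.5-fold. They changed by 0.87 (0.72 to 1.03) and 0.87 (lower bound 0.73), and the adaptor gene Myd88 by 0.34. None of the 4 Janus kinase genes passed 1.5-fold, and among them Jak3, the partner of the common gamma chain, changed by -0.28 (-0.36 to -0.19), close to the T cell core median of -0.28. Of the 7 STAT genes, Stat3 alone was past 1.5-fold. Of the 4 feedback genes, Socs2 and Socs3 were past 1.5-fold, with changes of 0.94 (0.64 to 1.26) and 0.76 (0.67 to 0.85). Socs1 changed by 0.22 (-0.01 to 0.46) and Cish by 0.32 (0.11 to 0.52), both under 1.5-fold.

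Read counts of the 2 libraries were also set against each other with an exact binomial test (two-sided). It covered the 14863 genes that had 10 or more reads in total, among them 22 ligands and 38 receptor chains. The test compares libraries, not genotypes. Counting as called a Benjamini-Hochberg adjusted p under 0.1 together with a 1.5-fold difference, 10 ligands and 9 receptor chains were higher and 6 of each were lower, against 14.3% and 18.1% of all genes tested. When biological variation was added by assumption, as a coefficient of 0.4 in the exact test of edgeR, 4 ligands and 1 receptor chain were higher and 2 of each were lower, against 1.54% and 3.83% of all genes tested. All of these 9 genes, namely Il1a, Il7, Il12b, Il23a, Il22ra1, Il6, Il33, Il20ra and Il1rapl1, were listed at 0 in 1 library, and neither Il1b nor Il12a was called under that assumed spread.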

How the data were processed

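Per the labels, TopHat mapped the reads to mm10, and the submitters' processing notes also name bcl2fastq 2.0, STAR, StringTie and DESeq2; the counting tool's settings, strand and annotation are not given in the sources used here. The authors deposited 1 signal value per gene and library, which is a read count divided by a size factor: 100% of the values were whole multiples, within 0.01, of the smallest value, 0.967 (control) and 1.14 (cKO), and dividing by it recovered whole reads. The members and lists were chosen with earlier results of these data known. Every gene with an Il symbol was kept, and both values are printed for members past 1.5-fold, with a mean of 100 or more, or in genomic clusters; the others are given by interval or count.

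Changes used a pseudocount of 1, a minimum mean level of 1 and a threshold of 1.5-fold from the methods. The adjusted p in the count tests is a Benjamini-Hochberg value. With 1 library per genotype no test between genotypes was possible. Coordinates and exon lengths came from GENCODE vM21 on GRCm38, which held 82 of the 83 members, all but Il4i1b. Promoters came from RefSeq (GRCm38.p6). Alternatives were other pseudocounts, filters, scalings (TMM, DESeq2's median of ratios, T cell core genes set equal), a threshold of 2 and count tests on the recovered reads. Intervals and the count test were tested on simulated data. The intervals cover counting error only, and the listed zeros exceed it. The simulation is therefore no check of calls that rest on such zeros, nor of variation between animals. Tools were Python 3.11.15, scipy 1.17.1, pandas 2.3.3, R 4.3.3, edgeR 4.0.16 and DESeq2 1.42.0.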

Additional observations from a re-analysis of the deposited data

How the results depend on the processing

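No paired analysis was possible because only 1 library represents each genotype. Under pseudocounts of 0.1 and 5, with the filter removed, and with TMM or median-of-ratios scaling, every count of ligands, receptor chains, signalling genes and all genes stayed within 1.5 times its reported value, and no member past 1.5-fold changed sign under any pseudocount or scaling tried. Il1rn was no longer past 1.5-fold under TMM scaling, nor were Il17f, Il11ra2 and Il31ra with a pseudocount of 5. Under the T cell core scaling, 18 receptor chains were higher and 4 lower, 24 signalling genes were higher, and 4542 of all genes were higher. With the filter removed the median change of the ligands was 0, since 13 of 39 were at 0 in both libraries. With a minimum mean of 10, 10 ligands were higher and 5 lower, and 9 receptor chains were higher and 4 lower. Of the 13676 genes then tested, 2112 were higher and 2035 lower, against 2864 and 4028 of 16659. With only genes above 0 in both libraries, 8 ligands were higher and 4 lower, 4 receptor chains were lower and 1904 of all genes were lower. With a threshold of 2, 8 ligands were higher and 9 lower, and 5 receptor chains were higher and 4 lower. At that threshold 4 signalling genes were higher and 0 lower, and of all 16659 genes 1722 were higher and 3019 lower. The exact binomial test on recovered reads left 6 ligands lower. In the edgeR exact test at the assumed coefficient of 0.4, 4 ligands, 1 receptor chain, 0 signalling genes and 229 of all genes were higher, and 2 ligands, 2 receptor chains and 569 of all genes were lower. Fewer genes were tested under the stricter filters, and the cause of the shifts in these counts was not tested. Members with fewer than about 30 reads, most ligands among them, are limited by depth and by the frequent zeros.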
